A study of Mus musculus with 12 samples.

Results

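Immunoglobulin genes were described in RNA of mouse brown adipose tissue, the fat depot that makes heat in the cold. They were chosen by symbol, as probe sets annotated with exactly 1 symbol that names a mu, gamma or alpha heavy chain constant region, a heavy, kappa or lambda variable segment, a kappa or lambda constant region, or the joining chain Jchain. For a gene with several probe sets the brightest over the 12 arrays was used. The rule found 21 genes among 22180 measured. Of these, 2 were heavy chain constant regions (Ighm and Ighg3), 3 heavy chain variable segments, 13 kappa variable segments, 1 a lambda variable segment (Iglv1) and 1 Jchain. The remaining gene, Ighmbp2, encodes a helicase and met the rule only because its symbol begins with Ighm. It was kept in counts over 21 genes, and 20 genes are immunoglobulin genes proper. The current mouse gene table lists 360 genes under the same symbols, so the arrays as annotated here sample a small share of the family, and the kappa and lambda constant regions, Igha and the other gamma genes were not analysed here.

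The arrays came from male mice aged 10 weeks on standard chow, in 4 groups of 3. These were Zbtb7b knockout (KO) mice kept at 4 °C for 4 h (KO cold), wild-type (WT) mice under the same exposure (WT cold), KO mice at an ambient 22 °C (KO room temperature) and WT mice at 22 °C (WT room temperature). The labels used here name no strain, no allele and no Cre driver for the knockout. A free-text description goes against the other labels, since it names liver on every array and an Nrg4 knockout on most, WT arrays included, so groups were taken from the titles. The labels call the arrays of a group biological replicates in 1 field and number pools in another, so a p-value here reflects only how far these samples scatter, which may be technical. Values are log2 signals, and a difference of 1 on this scale is a factor of 2.

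Antibodies are built from paired heavy and light chains, and each chain joins a variable segment, picked by DNA recombination in each B cell, to a constant region. The mu constant region gives IgM, the isotype made first, and switching to gamma or alpha constant regions gives IgG and IgA. Jchain is a small protein that plasma cells make to hold polymeric IgM and IgA together. Zbtb7b, also called ThPOK, directs T cells to the CD4 helper fate, and helper T cells in turn drive antibody responses, while brown fat itself is not a tissue of antibody production. The comparison of KO with WT asks how these transcripts differ in the depot when Zbtb7b is missing, and the comparison of cold with room temperature asks whether they move within hours of cold.

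Among the 20 immunoglobulin genes, Jchain was the only one with an entry in the RefSeq promoter table used. Its promoter is shown because Jchain had the smallest p-value of the 21 genes for KO against WT over both temperatures. It runs from 250 bases before to 50 bases after the gene's start on the minus strand of mouse assembly GRCm38.p6, chr5:88527848-88528147, and is printed 5′ to 3′. Capitals mark E-boxes, the letters CANNTG, which are the same on both strands.

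Jchain promoter: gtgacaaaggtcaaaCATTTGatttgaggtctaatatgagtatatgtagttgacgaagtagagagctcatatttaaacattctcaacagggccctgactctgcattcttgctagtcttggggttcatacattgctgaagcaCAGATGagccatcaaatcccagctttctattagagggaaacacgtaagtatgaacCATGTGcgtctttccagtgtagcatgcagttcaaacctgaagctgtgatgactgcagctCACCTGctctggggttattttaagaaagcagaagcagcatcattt

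The window held 4 E-boxes, and 72.3% of 32851 mouse promoters of the same length held at least 1. The form CACCTG, searched on both strands and itself an E-box, occurred 1 time, and 20.2% of promoters held it. The octamer ATGCAAAT, searched on both strands and known from the promoters of immunoglobulin variable segments, had 0 matches here, and 1.74% of all promoters held it.

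The arrays had medians of 2.63 to 2.83 and highest signals of 13.37 to 13.52. Zbtb7b, the targeted gene, averaged 3.12 in KO cold, against 4.42 in WT cold, and 3.47 in KO at room temperature, against 4.58 in WT, and every KO array lay below every WT array of its temperature (-1.21 over both temperatures, SE 0.11, limma adjusted p = 2.91e-04). Ucp1, the uncoupling protein of brown fat, lay between 11.55 and 12.95 on all arrays, while of 8 hepatocyte genes, read because a label field mentions liver, 6 had a mean under 4, among them albumin (Alb, 1.20 to 2.75). The other 2 were Apoa2 (3.71 to 4.88), an apolipoprotein, and Cyp2e1 (10.17 to 11.90), a cytochrome P450 enzyme. For genes with a group mean under 4, near the arrays' medians, differences are given on the log2 scale without a fold. Over the 12 arrays 11 of the 21 genes had a mean of at least 4 and 3 a mean of at least 5 (Igkv5-43, Ighm and Igkv9-120), and no filter on low signal was applied.

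A minority of the immunoglobulin genes fell in KO brown fat and the others did not pass the test. Over both temperatures, 7 of the 21 genes fell and 0 rose at an adjusted p under 0.05 (limma, Benjamini-Hochberg over all 22180 genes), where 0.834% of all genes were called lower and 0.794% higher. The 7 were Jchain, Ighm, the lambda segment Iglv1 and the kappa segments Igkv5-43, Igkv4-70, Igkv4-72 and Igkv4-91. Of the 21 differences 18 lay below 0, with a median of -0.57 beside 0.00325 over all genes. In the cold 3 genes fell and 0 rose (Jchain, Ighm and Iglv1), with 0.55% of all genes called lower and 0.361% higher, and the median was -0.97 beside 0.01 over all genes. At room temperature 1 gene fell and 0 rose (Igkv5-43), with 0.284% of all genes called lower and 0.266% higher, and the median was -0.32 beside 0.01 over all genes. Without 1 array the median ranged from -0.71 to -0.52 over both temperatures, from -1.12 to -0.59 in the cold and from -0.54 to -0.25 at room temperature. In the cold it was -0.59 without WT cold replicate 2 and -0.62 without KO cold replicate 3, and at room temperature -0.54 without KO room temperature replicate 1. Among the 3 genes with a mean of at least 5 the medians were -1.22 over both temperatures, -1.29 in the cold and -1.22 at room temperature. At an unadjusted p under 0.05 in limma, 11 genes stood lower and 0 higher over both temperatures (7.51% of all genes were lower), 10 lower and 0 higher in the cold (8.32%), and 7 lower and 1 higher at room temperature (5.3%). The KO arrays lay wholly below the WT arrays for 8 genes in the cold, where 11.1% of all genes did so, and for 5 at room temperature, where 7.97% did. They lay wholly above for 1 gene in the cold (Ighmbp2; 9.55% of all genes) and for 2 at room temperature (Ighv1-47 and Igkv6-23; 9% of all genes).

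The count over both temperatures ranged from 2 to 7 when 1 array was left out. It was 2 without WT room temperature replicate 1 or 2, KO room temperature replicate 2 or 3, WT cold replicate 1 or KO cold replicate 3, and 3 without WT cold replicate 2 or KO cold replicate 2. Jchain and Ighm were past the test in all 12 of these fits. The count in the cold was 0 without WT cold replicate 1 or KO cold replicate 3 and 1 without WT cold replicate 2. At room temperature it was 0 without WT replicate 1 or 2, KO replicate 2 or 3, or KO cold replicate 2, and 2 without WT cold replicate 2 or 3 or KO cold replicate 1 or 3.

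**Figure D1:**
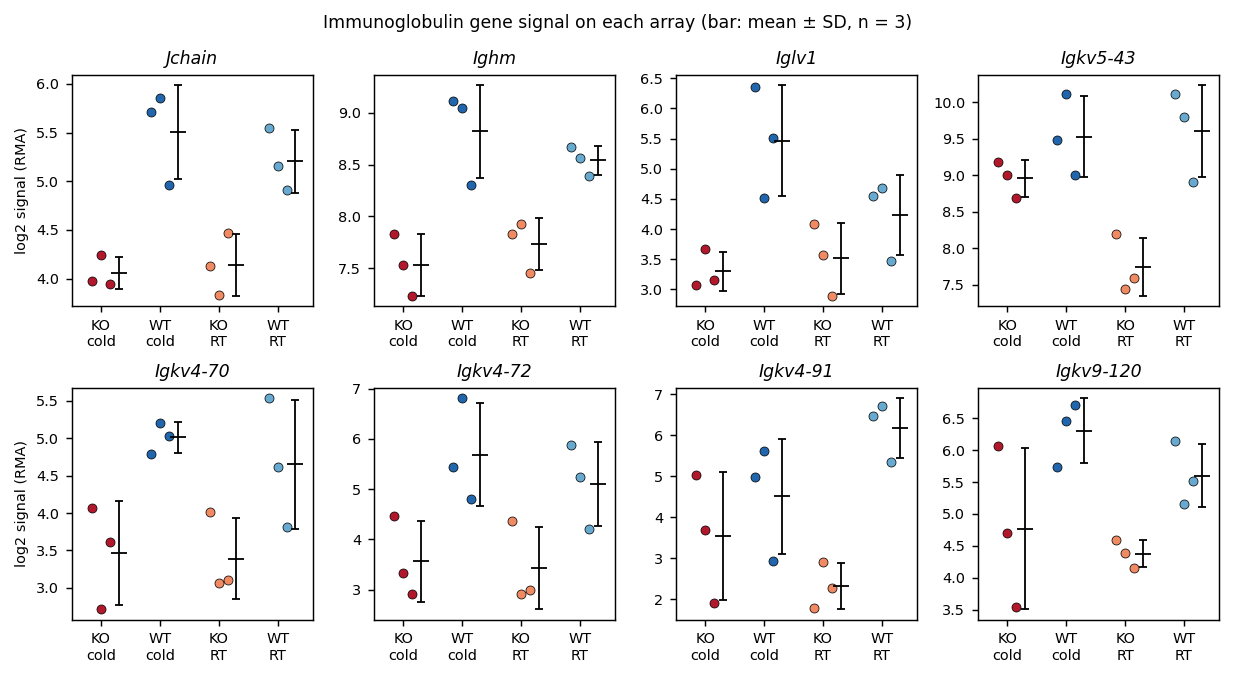
Log2 signal of 8 immunoglobulin genes on each of the 12 arrays, with knockout (KO) left of wild type (WT) in the cold and at room temperature (RT). Points are arrays, bars are the mean ± SD of 3, and each panel has its own axis. For Jchain and Ighm all 6 KO points lie below all 6 WT points.

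Jchain, the joining chain of polymeric antibodies, gave the clearest separation. Its signal was 3.97, 4.24 and 3.95 in KO cold, against 5.71, 5.85 and 4.96 in WT cold. At room temperature it was 4.13, 3.83 and 4.46 in KO, against 5.55, 5.15 and 4.91 in WT. The highest KO array (4.46) lay below the lowest WT array (4.91), a full separation of 6 against 6 that 0.334% of all genes showed in this direction.

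Over both temperatures Jchain was 2.39-fold lower in KO (log2 -1.26, SE 0.17, 95% confidence interval -1.64 to -0.88, adjusted p = 0.00409). In the cold it was 2.74-fold lower (-1.45, SE 0.25, adjusted p = 0.0184). At room temperature the groups did not overlap but the difference did not pass (-1.06, SE 0.25, adjusted p = 0.0904). The call in the cold was lost without WT cold replicate 1 (-1.35, adjusted p = 0.0953) or 2 (-1.28, 0.0882) or KO cold replicate 3 (-1.40, 0.0658). From the 6 cold arrays alone it was also lost (adjusted p = 0.0887).

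Ighm, the mu constant region of IgM, was also lower in KO in its brightest probe set. It read 7.83, 7.53 and 7.24 in KO cold, against 9.11, 9.04 and 8.30 in WT cold. At room temperature it read 7.83, 7.92 and 7.45 in KO, against 8.67, 8.56 and 8.39 in WT. Again no KO array reached a WT array, and WT cold replicate 3 was the lowest of the WT arrays.

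Ighm was 2.07-fold lower in KO over both temperatures (-1.05, SE 0.16, 95% confidence interval -1.39 to -0.70, adjusted p = 0.00674) and 2.44-fold lower in the cold (-1.29, SE 0.22, adjusted p = 0.0211). At room temperature it stood at -0.81 (SE 0.22, adjusted p = 0.159). The call in the cold was lost without WT cold replicate 1 (-1.14, adjusted p = 0.104) or 2 (-1.17, 0.101) or KO cold replicate 3 (-1.14, 0.0707), and from the 6 cold arrays alone (0.125). As in any bulk tissue, fewer cells of a type and less RNA per cell cannot be told apart.

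The arrays carry 7 probe sets annotated to Ighm, and they did not all move together. Tested each on its own, 3 of them fell over both temperatures: the brightest, the third (-1.31, adjusted p = 0.0108) and the fifth (-1.55, adjusted p = 0.0108). The fourth (-0.74, adjusted p = 0.211) and sixth (-1.34, adjusted p = 0.138) also stood below 0 without passing. The second brightest did not show the difference (-0.02, adjusted p = 0.969): it read 5.73, 5.08 and 5.30 in KO cold, against 5.36, 6.54 and 6.02 in WT cold, and 6.62, 7.14 and 7.0 in KO at room temperature, against 6.18, 6.57 and 6.36 in WT. Its KO arrays thus lay above all WT arrays at room temperature (0.55, adjusted p = 0.465). Within KO its cold arrays lay below all its room-temperature arrays, as was so for 3811 of all 22180 genes. The dimmest averaged 1.28 (0.26, adjusted p = 0.628). Which stretch of the heavy chain locus each probe set covers is not stated in the annotation used. With the mean of the 7 in place of the brightest, Ighm still fell over both temperatures (-0.82, adjusted p = 0.0181) and in the cold (-1.12, adjusted p = 0.0315).

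**Figure D2:**
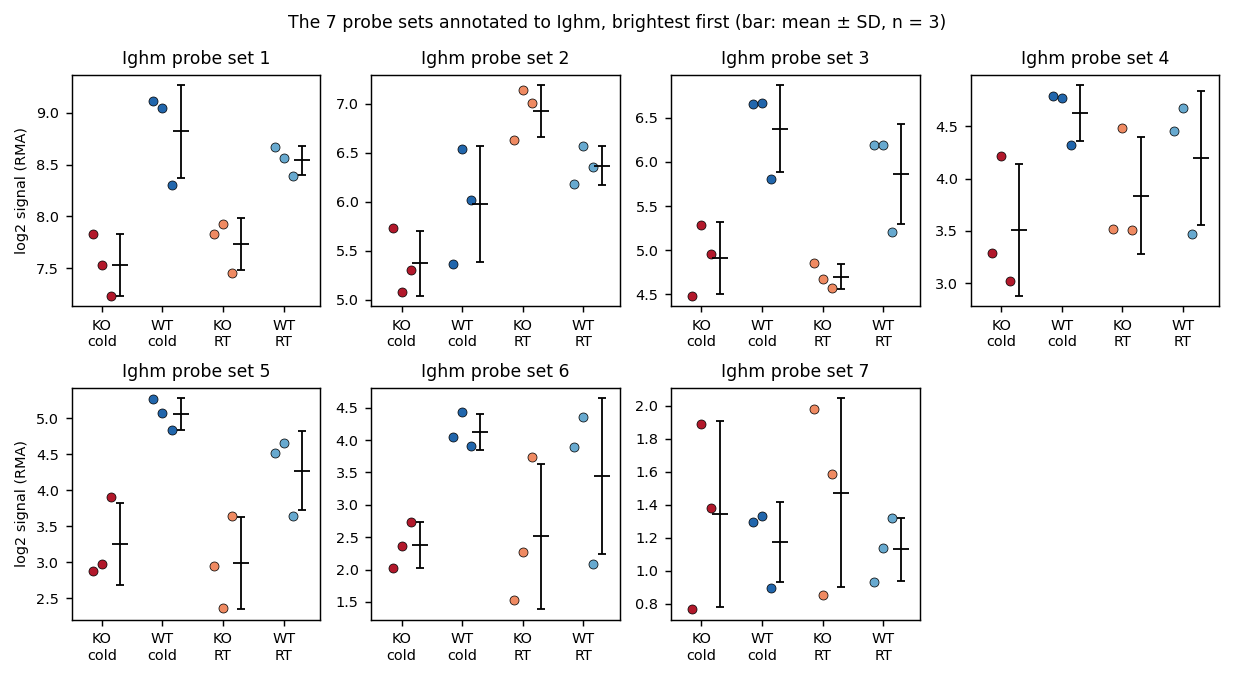
Log2 signal of the 7 probe sets annotated to Ighm on each array, brightest first, with KO left of WT in the cold and at room temperature (RT); bars are the mean ± SD of 3 and each panel has its own axis. Probe sets 1, 3 and 5 sit lower in KO, while probe set 2 separates the temperatures more than the genotypes.

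Ighg3, the constant region of an IgG subclass and the only gamma gene measured, read between 1.5 and 2.65 on all arrays. Its difference over both temperatures was -0.21 (SE 0.17, 95% confidence interval -0.57 to 0.16, adjusted p = 0.612). At signals below the arrays' medians a difference in this isotype was not detectable here.

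Of the 3 heavy chain variable segments, Ighv1-53 was the only one with a mean above 4. It was 3.52, 4.02 and 4.00 in KO cold, against 4.80, 5.12 and 4.90 in WT cold, with no overlap, and did not pass (-1.10, SE 0.28, adjusted p = 0.0921). At room temperature its difference was -0.04 (SE 0.28, adjusted p = 0.978). Ighv1-47 and Ighv1-54 stayed between 0.47 and 1.80 on all arrays.

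Iglv1, a variable segment of the lambda light chain, was called lower in KO close to the threshold. It read 3.07, 3.67 and 3.16 in KO cold, against 6.36, 4.52 and 5.51 in WT cold, where the WT arrays were spread widely. At room temperature it was 4.08, 3.57 and 2.89 in KO, against 4.55, 4.68 and 3.46 in WT, and these groups overlapped. The difference was -2.16 in the cold (SE 0.45, adjusted p = 0.0483), -0.72 at room temperature (SE 0.45, adjusted p = 0.601) and -1.44 over both (SE 0.32, adjusted p = 0.0439). In the cold it passed in 3 of the 12 fits without 1 array, those without WT room temperature replicate 3, KO room temperature replicate 3 or WT cold replicate 2, and the adjusted p was as high as 0.176 without WT cold replicate 1. The call in the cold was also lost with the mean of probe sets (adjusted p = 0.0522), cyclic loess (0.0519), array weights (0.0688), the replicate block (0.0507) and the 6 cold arrays alone (0.125). Over both temperatures it also passed in 3 of 12, without WT room temperature replicate 3, KO room temperature replicate 1 or WT cold replicate 2, with adjusted p-values up to 0.111 in the others.

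The kappa light chain is the main light chain of mouse antibodies, and its 13 variable segments gave 4 of the 7 genes that fell. Igkv5-43 read 8.19, 7.44 and 7.59 in KO at room temperature, against 10.12, 9.80 and 8.90 in WT, with no overlap. In the cold it read 9.18, 9.0 and 8.69 in KO, against 9.48, 10.11 and 9.0 in WT, where the groups overlapped.

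Igkv5-43 was 3.65-fold lower in KO at room temperature (-1.87, SE 0.33, adjusted p = 0.0293), while in the cold it stood at -0.57 (SE 0.33, adjusted p = 0.467). Over both temperatures it was 2.33-fold lower (-1.22, SE 0.24, adjusted p = 0.0255). The 2 dimmer probe sets of Igkv5-43, with means of 1.54 and 0.87, did not pass (-0.51, adjusted p = 0.286, and -0.38, adjusted p = 0.652). With the mean of its 3 probe sets it no longer passed at room temperature (-0.91, adjusted p = 0.154) or over both (-0.70, adjusted p = 0.0729). At room temperature the call was lost without WT replicate 1 (-1.61, adjusted p = 0.112) or 2 (-1.77, 0.107), KO replicate 2 (-1.72, 0.117) or 3 (-1.79, 0.109) or KO cold replicate 2 (-1.87, 0.0512), and from the 6 arrays alone (0.0955). Over both temperatures it was lost in 7 of 12 such fits, with adjusted p-values up to 0.0636, and stayed without WT room temperature replicate 3, KO room temperature replicate 1, WT cold replicate 3 or KO cold replicate 1 or 2.

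The Igkv4 family is one of several families of kappa segments, whose members share much of their sequence, so probes may read relatives of the segment they name. It has 4 members here, and 3 of them fell over both temperatures. Igkv4-72 read 4.47, 3.33 and 2.91 in KO cold, against 5.44, 6.81 and 4.80 in WT cold, and 4.36, 2.91 and 3.0 in KO at room temperature, against 5.87, 5.24 and 4.20 in WT. Igkv4-70, separated from it by 2 other kappa segments in the gene table, read 4.07, 2.72 and 3.61 in KO cold, against 4.79, 5.21 and 5.03 in WT cold, and 4.01, 3.06 and 3.10 in KO at room temperature, against 5.53, 4.62 and 3.81 in WT. In both genes the cold groups were apart and the room-temperature groups overlapped through KO replicate 1 and WT replicate 3.

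Over both temperatures Igkv4-72 was lower by -1.90 on the log2 scale (SE 0.42, adjusted p = 0.0432) and Igkv4-70 by -1.40 (SE 0.30, adjusted p = 0.0380). Within a single temperature neither passed. The call of Igkv4-72 stayed in 4 of 12 fits without 1 array, those without WT room temperature replicate 3, KO room temperature replicate 1, WT cold replicate 3 or KO cold replicate 1, and its adjusted p reached 0.109 in the others. That of Igkv4-70 stayed in 3 of 12, without WT room temperature replicate 3, KO room temperature replicate 1 or KO cold replicate 1, with adjusted p-values up to 0.0969 in the others.

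Igkv4-91 was 1.79, 2.92 and 2.27 in KO at room temperature, against 6.46, 6.71 and 5.35 in WT. In the cold it was 5.02, 3.68 and 1.91 in KO, against 4.98, 5.62 and 2.93 in WT, so each cold group spanned more than 2 units and they overlapped. The difference was -3.85 at room temperature (SE 0.77, adjusted p = 0.0517), -0.97 in the cold (SE 0.77, adjusted p = 0.615) and -2.41 over both (SE 0.54, adjusted p = 0.0484). The last call stayed in 2 of 12 fits, those without WT cold replicate 3 or KO cold replicate 1, and reached an adjusted p of 0.124 in the others. The fourth family member, Igkv4-59, did not pass over both temperatures (-0.72, SE 0.31, adjusted p = 0.305).

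Among the other kappa segments Igkv9-120 came closest (-1.38 over both, SE 0.35, adjusted p = 0.0754). It read 4.59, 4.39 and 4.15 in KO at room temperature, against 6.14, 5.15 and 5.52 in WT, and 6.06, 4.70 and 3.54 in KO cold, against 5.73, 6.46 and 6.71 in WT cold, with an overlap through KO cold replicate 1. Igkv15-103 stood at -1.34 (SE 0.50, adjusted p = 0.228), with KO arrays from 2.39 to 5.25 and WT arrays from 4.45 to 6.46. Igkv1-133 stood at -0.50 (SE 0.25, adjusted p = 0.389). The remaining 5 kappa segments, Igkv9-124, Igkv8-30, Igkv8-19, Igkv6-23 and Igkv6-14, had means of 2.0 or less. Their differences over both temperatures lay between -0.48 and 0.09, and none passed. In the cold they ranged from -0.97 (Igkv9-124) to -0.12 (Igkv6-14), and at room temperature from -0.09 (Igkv6-14) to 0.78 (Igkv6-23), again without a call. Dim as they are, Igkv9-124 and Igkv8-19 in the cold and Igkv6-23 at room temperature are in the counts at an unadjusted p under 0.05 above. Ighmbp2, the helicase, stood at 0.21 (SE 0.12, adjusted p = 0.465).

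**Figure D3:**
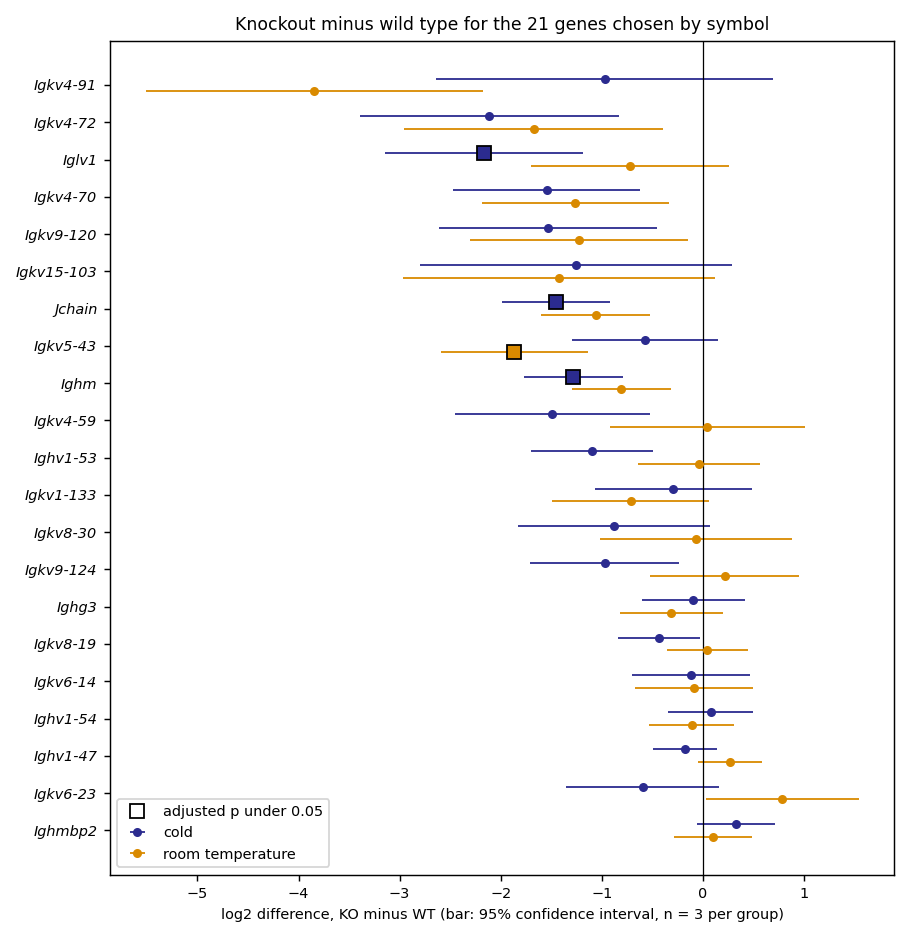
Log2 difference, KO minus WT, for each of the 21 genes in the cold and at room temperature, with 95% confidence intervals (3 arrays per group); squares mark an adjusted p under 0.05. Genes are ordered by the difference over both temperatures, and those from Igkv4-91 to Ighm lie left of 0 at both temperatures.

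Between cold and room temperature 1 gene passed in each genotype. In WT 1 of the 21 rose and 0 fell, where 9.39% of all genes were called higher and 7.98% lower. At an unadjusted p under 0.05, 7 stood higher and 0 lower (14.8% of all genes were higher). Of the 21 differences in WT 16 lay above 0, with a median of 0.36 beside -0.02 over all genes. The gene was Igkv4-59, which was 2.90, 5.03 and 4.00 in WT cold, against 2.79, 1.81 and 2.84 in WT at room temperature (1.5, SE 0.44, adjusted p = 0.0359). The call was lost without WT cold replicate 2 (0.97, adjusted p = 0.133) or 3 (1.49, 0.0934) and without WT room temperature replicate 1 (1.65, 0.0547) or 2 (1.16, 0.142). The count in WT was 0 without WT room temperature replicate 1, 3 without KO room temperature replicate 1 and 2 without WT cold replicate 3.

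In KO 1 of the 21 rose and 0 fell, where 8.34% of all genes were called higher and 10.8% lower, and at an unadjusted p under 0.05 the numbers were also 1 and 0 (13.3% of all genes were higher). Here 10 of 21 lay above 0, with a median of -0.03. It was Igkv5-43, which was 2.32-fold higher in KO cold than in KO at room temperature (1.22, SE 0.33, adjusted p = 0.0226), with the KO array values given above and no overlap between the temperatures. The count was 0 without KO room temperature replicate 2 (adjusted p = 0.0863) or 3 (0.0724) or KO cold replicate 1 (0.0733) or 2 (0.0616). Jchain (-0.09, SE 0.25, adjusted p = 0.868) and the brightest Ighm probe set (-0.20, SE 0.22, adjusted p = 0.626) did not pass in KO. They did not pass in WT either (0.30, SE 0.25, adjusted p = 0.475, and 0.28, SE 0.22, adjusted p = 0.474). The second brightest Ighm probe set did lie lower in KO cold than in KO at room temperature without overlap, as described above. Over both genotypes 0 of the 21 passed by limma and 4 stood higher and 0 lower at an unadjusted p under 0.05 (17% of all genes were higher), where 12.9% of all genes were called higher and 14.3% lower.

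Whether the genotypes differed more at one temperature than at the other was tested as an interaction, KO minus WT in the cold less the same at room temperature. By limma 0 of the 21 genes passed, and 6 of all 22180 genes did (0.0271%). At an unadjusted p under 0.05 there were 5 genes with a negative and 2 with a positive interaction, where 10.5% of all genes were under that value. The positive ones were Igkv4-91 (2.87, adjusted p = 0.387) and Igkv5-43 (1.29, adjusted p = 0.377), and Iglv1 was among the negative ones (-1.44, adjusted p = 0.455). The lambda and kappa calls within a single temperature are therefore not shown to be particular to it.

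Genes that mark the cells that make antibody gave no call between KO and WT. Of 20 measured B cell genes 0 rose and 0 fell in KO over both temperatures, in the cold or at room temperature. At an unadjusted p under 0.05 in limma, 3, 0 and 4 of them stood higher in these comparisons, where 7.18%, 6.1% and 6.1% of all genes did, and 0 stood lower. Their list mean was 2.54 to 2.71 in KO cold, against 2.58 to 2.62 in WT cold, and 2.72 to 2.92 in KO at room temperature, against 2.54 to 2.76 in WT. Of the 20, 17 had a mean under 4. Cd79a, a signalling chain of the B cell receptor, lay between 1.96 and 3.18, and Ms4a1, which encodes CD20, between 1.00 and 1.52.

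Of 15 plasma cell genes 0 passed in either direction in these 3 comparisons, and 9 had a mean under 4. At an unadjusted p under 0.05 in limma, 1 stood lower and 1 higher over both temperatures (7.51% and 7.18% of all genes). In the cold 2 stood lower and 0 higher (8.32% and 6.1%), and at room temperature 1 lower and 2 higher (5.3% and 6.1%). The list averaged 4.11 to 4.50 in KO cold, against 4.31 to 4.45 in WT cold, and 4.42 to 4.59 in KO at room temperature, against 4.34 to 4.54 in WT. Mzb1, a chaperone of plasma cells, lay between 0.98 and 2.48, and Tnfrsf17, the receptor BCMA, between 1.51 and 2.41, below the arrays' medians. Irf4, a transcription factor of plasma cells and other immune cells, lay between 5.91 and 8.64, and Slamf7, a surface receptor, between 4.64 and 6.62. Other bright members, such as Xbp1 (8.48 to 9.43) and Edem1 (7.55 to 9.15), serve the secretory pathway of many cells. Creld2, a protein of the endoplasmic reticulum, came closest to passing in the cold (-1.0, SE 0.22, adjusted p = 0.0609).

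Igkj1, a joining segment of the kappa chain outside the rule, was the only measured gene of 13 other immunoglobulin segments listed. It read 5.13, 5.16 and 5.35 in KO cold, against 5.81, 5.73 and 5.62 in WT cold, and 4.45, 4.35 and 3.80 in KO at room temperature, against 5.58, 7.14 and 5.18 in WT. The genotypes did not overlap at either temperature, and the difference over both was -1.14 (SE 0.27, adjusted p = 0.0588). The 5 measured genes of the surrogate light chain and of recombination, which act in B cell precursors, had list means of 1.38 to 1.64 and 0 calls between the genotypes.

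In the list of class switching and T cell help 0 of 16 genes passed between KO and WT in any of the 3 comparisons. At an unadjusted p under 0.05, 1 stood higher over both temperatures, 2 in the cold and 3 at room temperature, and 0 lower, where 7.18%, 6.1% and 6.1% of all genes were higher. Cd4 itself stood at -0.18 over both (adjusted p = 0.723), and Cd40lg, the helper signal to B cells, lay between 1.37 and 1.77. Of 8 T cell genes 1 rose at room temperature, where 0.266% of all genes did (Cd8a, 0.99, SE 0.16, adjusted p = 0.0208), and 0 passed in the cold or over both. At an unadjusted p under 0.05 in limma, 3 of the 8 stood higher and 0 lower at room temperature. In the cold 0 stood higher and 1 lower. Of 10 genes of Fc receptors and antibody transport 4 stood higher and 0 lower at room temperature at an unadjusted p under 0.05. In the cold 1 stood higher and 1 lower. By adjusted p 1 of the 10 rose in KO over both temperatures (0.794% of all genes), the inhibitory receptor Fcgr2b (0.58, SE 0.12, adjusted p = 0.0343). It was 7.39, 7.62 and 7.83 in KO cold, against 6.88, 7.43 and 7.17 in WT cold, and 6.90, 7.19 and 6.95 in KO at room temperature, against 6.49, 6.23 and 6.19 in WT. Of the 4 measured genes of lymph node stroma, 3 of them with a mean under 4, 1 rose in KO in the cold (0.361% of all genes). This was Cxcl13, a chemokine that attracts B cells (1.27, SE 0.25, adjusted p = 0.0396). It was 9.91, 9.87 and 9.57 in KO cold, against 8.70, 8.48 and 8.37 in WT cold, the opposite side from Jchain and Ighm, and did not pass at room temperature (0.30, adjusted p = 0.725).

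Fc receptor genes, which read antibody on other cells, were among those that changed with cold. In WT 5 of 10 rose and 0 fell, where 9.39% of all genes were called higher and 7.98% lower. Among the 5 were Fcgr1 (1.31, adjusted p = 0.0232) and Fcgr2b (0.85, adjusted p = 0.00434). In KO 1 rose and 2 fell, where 8.34% of all genes were called higher and 10.8% lower. Fcgr2b rose (0.60, adjusted p = 0.0266). The neonatal Fc receptor Fcgrt, which carries IgG across cells, and the cytosolic antibody receptor Trim21 fell (-0.36, adjusted p = 0.0301, and -1.31, adjusted p = 0.00158). The difference between the genotypes in these cold responses was not past the test for any of the 10. A rise with cold in WT was not particular to this list. Of 8 macrophage genes 5 rose and 0 fell with cold in WT, and 3 rose and 1 fell in KO. The part of macrophages in the Fc receptor changes was not tested. Cxcl13 rose with cold in KO (2.22, adjusted p = 1.08e-04) and in WT (1.25, adjusted p = 0.00470).

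Other cell types were read on the same arrays. The macrophage list averaged 6.58 to 7.33 in KO cold, against 6.58 to 6.88 in WT cold, and 6.73 to 7.01 in KO at room temperature, against 5.85 to 6.25 in WT. Of its 8 genes 2 rose over both temperatures (0.794% of all genes did), 2 in the cold (0.361%) and 0 at room temperature (0.266%). At room temperature all 8 stood higher in KO at an unadjusted p under 0.05 in limma (6.1% of all genes). There the KO arrays lay wholly above the WT arrays for 7 of them (9% of all genes). The neutrophil list was at 3.91 on 1 KO cold array, replicate 3, and between 1.72 and 2.35 on the other arrays. The skeletal muscle list ranged from 4.85 to 9.06 in KO cold, against 5.73 to 8.49 in WT cold, and from 3.16 to 9.29 in KO at room temperature, against 2.73 to 7.22 in WT. When the fit also held the muscle list's level on each array, an addition made once the data had been seen, Jchain (-1.17, adjusted p = 0.00925), Ighm (-1.07, adjusted p = 0.0144), Igkv5-43, Igkv4-70 and Igkv4-72 were past the test over both temperatures. Igkv4-91 (-2.41, adjusted p = 0.0826) and Iglv1 (-1.51, adjusted p = 0.0617) were not. The neutrophil, skeletal muscle, hepatocyte and erythroid lists had 0 calls between KO and WT. The brown adipocyte list had 3 of 9 genes lower at room temperature and over both, where 0.284% and 0.834% of all genes were called lower. The part of macrophages and neutrophils in the immunoglobulin differences was not tested.

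**Figure D4:**
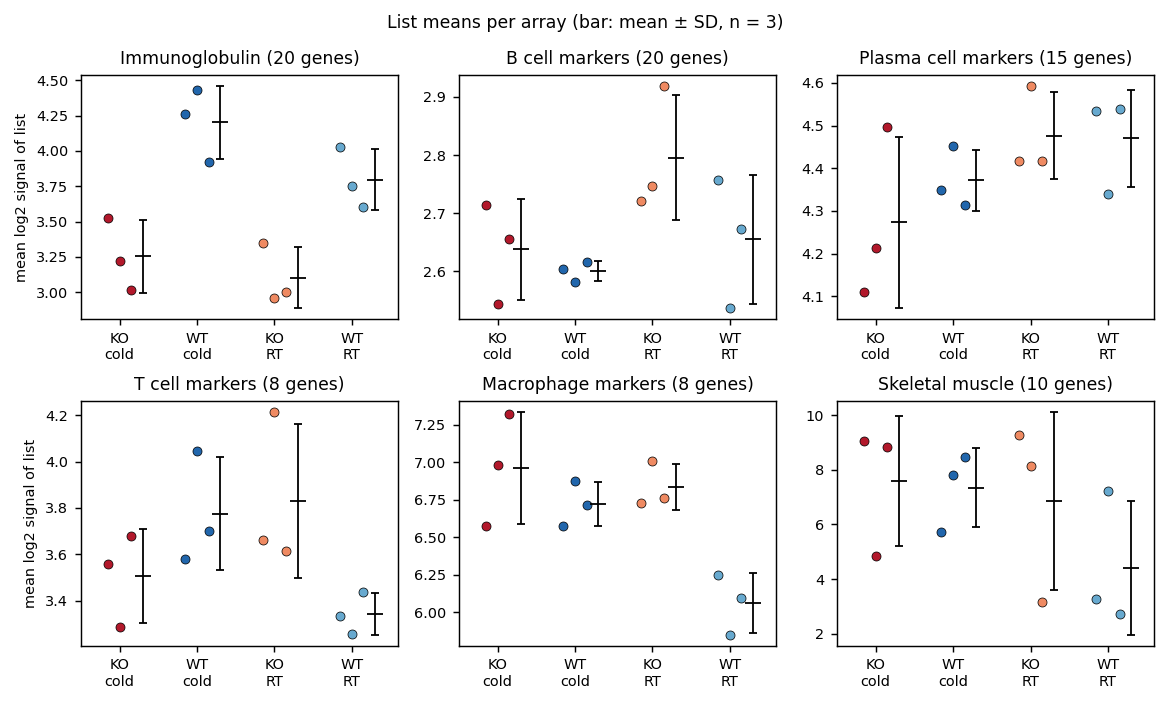
Mean log2 signal per array of the 20 immunoglobulin genes and of 5 cell type lists, with KO left of WT in the cold and at room temperature (RT); bars are the mean ± SD of 3 and each panel has its own axis. The immunoglobulin mean lies between 2.96 and 3.53 on the KO arrays and between 3.61 and 4.43 on the WT arrays, while the B cell and plasma cell lists overlap between the genotypes in the cold and at room temperature.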

How the data were processed

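The authors deposited log2 signals for 41345 probe sets on 12 arrays, made with RMA, per the labels' list of tools (oligo, RMA, limma), which gives no versions; the log2 scale was checked against the range of the values. Labelling started from 400 ng of RNA per sample, per the labels' protocols. The raw scans were not used here, and 3 arrays per group limit the precision.

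From these values 23521 probe sets with 1 gene symbol were kept (1814 had several, 16010 none), and the brightest per gene gave 22180 genes. In R 4.3.3 with limma 3.58.1, a mean per group was fitted over all 12 arrays with eBayes, giving 7 two-sided comparisons, each adjusted by Benjamini-Hochberg over all genes and called at 0.05. Alternatives covered the probe set summary, a signal filter, scaling, the spread, weights, a replicate block and leaving out arrays. The fit was tested on simulated data. Related genes came from 14 lists. The members and lists were chosen with earlier results of these data known. The text names Jchain, the constant regions and Zbtb7b, variable segments that passed, were brightest or varied most, and list genes that passed or had the smallest p; Cxcl13, Fc receptor and single marker values beyond these were chosen after they were seen, as were the E-box motifs.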

Additional observations from a re-analysis of the deposited data

How the results depend on the processing

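The sign of each called difference stayed the same under every setting run. In these a gene was read by its brightest probe set or by the mean of its probe sets. Settings that change only the spread, and fits without an array outside the comparison, leave the difference unchanged and could not reverse it. Single probe sets of Ighm did differ in sign. Over both temperatures, where Ighm was called, the dimmest stood at 0.26 (limma adjusted p = 0.628). At room temperature, where Ighm was not called, the second brightest stood at 0.55 (0.465). Over both temperatures the number lower in KO was 7 genes, and 5 to 9 genes or probe sets under the settings that kept all genes and arrays. With every probe set on its own the count is of 30 probe sets. Those that passed there belonged to the same 7 genes, 3 of them to Ighm. The number was 3 of 3 tested when dim genes (mean under 5) were dropped, and 2 to 7 without 1 array. At room temperature it was 1, and 0 after averaging each gene's probe sets, 2 with cyclic loess, with median centring, with array weights or with the replicate block, and 0 to 2 without 1 array. In the cold it was 3, and 1 with dim genes dropped, 0 from the 6 arrays alone and 0 to 3 without 1 array. Counts for cold against room temperature take either direction, and those for every probe set are of 30 probe sets. In KO the count was 1, with 0 for the mean of probe sets, 2 for every probe set on its own and 0 to 1 without 1 array. In WT it was 1, with 2 for every probe set, 0 with dim genes dropped, 0 with the skeletal muscle covariate and 0 to 3 without 1 array. Over both genotypes it was 0, with 1 for every probe set, 1 with the replicate block and 0 to 1 without 1 array, and the interaction count was 0 in each setting. Zbtb7b stayed lower in KO in each setting that tested it (-1.27 to -1.15 without 1 array). With median centring the median of all genes for cold against room temperature in KO was -0.117, beside 0.00388 without it. Replicate numbers in the sample titles do not pair the arrays: over 8475 genes, which are not independent, same-numbered arrays of different groups correlated at r = -0.537 to 0.451, with 6 of 18 above 0.1, and 4 of 12 arrays correlated best with their own number. With that replicate block 7 genes were lower in KO over both temperatures and 2 in the cold.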

Other observations

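A further 5 probe sets carried several gene symbols that included a chosen gene, so no single gene can be named for them and they entered no comparison above. In a fit over all 41345 probe sets, added once the data had been seen, each stood lower in KO over both temperatures, and 3 passed. The share of all 41345 probe sets that passed or lay apart in that fit was not computed, so these counts have no background beside them. The probe set annotated to Igkv4-53, Igkj1 and Igkv6-23 together read 10.37, 9.90 and 9.93 in KO cold, against 11.10, 11.37 and 10.66 in WT cold, and 10.14, 9.39 and 9.33 in KO at room temperature, against 11.16, 10.96 and 10.37 in WT (-1.09, SE 0.20, adjusted p = 0.0443). The probe set of Igkv9-124 and Igkv4-70 together averaged 9.74 over the 12 arrays (-1.44, SE 0.27, adjusted p = 0.0476). That of Ighv1-54, Igkv1-135 and Ighm together averaged 6.96 (-1.69, SE 0.26, adjusted p = 0.0250). In each of these 3 all KO arrays lay below all WT arrays, in the first by a margin too small to show at these decimals. The other two, which name Ighm among heavy chain genes, stood at -1.40 (adjusted p = 0.113) and -0.56 (adjusted p = 0.374).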
